A study of Mus musculus with 12 samples.

Results

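The 10 genes described here encode proteins of the PIWI-interacting RNA (piRNA) pathway and of retrotransposon control in germ cells. They were taken from a list of symbols, drawn up with earlier results of these data known, and are Piwil2, Ddx4, Mov10l1, Asz1, Tdrkh, Tdrd1, Tdrd12, Mael, Fkbp6 and Tex19.1. All 10 were among the 24391 symbols of the count table, and all 10 passed the filter on low counts, which left 17115 genes to test.

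RNA was sequenced from 4 female lines of mouse embryonic stem cells (mESC), each in 3 conditions, 12 libraries in all. The lines come from a cross of C57BL/6J-129/SvJ with Mus musculus castaneus. Every line carried Rs26+/CreERT, a Cre recombinase at Rosa26 that 4-hydroxytamoxifen (OHT) activates, so the control lines carried it and received OHT too. Lines 5.3 and 5.16 were Rif1+/+ and are called WT (replicates 1 and 2). Lines 15.10 and 16.9 were Rif1F/F, called F/F before OHT and KO after it (replicates 3 and 4). The conditions were mESC without OHT, mESC after 2 days of OHT, and embryoid bodies (EB), the aggregates in which mESC begin to differentiate, taken at 2 days after earlier OHT. The mESC medium held serum, leukemia inhibitory factor, the MEK inhibitor PD0325901 and the GSK3 inhibitor CHIR99021. Each genotype is represented by the same 2 lines throughout, so genotype and other differences between the pairs of lines cannot be told apart, and p-values measure the spread between these lines only. The labels give each condition its own flow cell, so a condition cannot be told apart from its flow cell, but both genotypes of a condition share one. The F/F library titles hold a deleted and an undeleted name side by side, and they were read as undeleted because they received no OHT.

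Total counts ranged from 28600870 to 64808897 per library. Rif1, the targeted gene, stood at 1537 and 1752 CPM (counts relative to the TMM-scaled library total) in WT and 1172 in both F/F libraries before OHT. It stood at 1605 and 1455 CPM in WT against 702 and 661.5 CPM in KO mESC, and at 1382 and 1342 against 789.1 and 845 CPM in EB. Rif1 RNA was thus already lower in the F/F lines before deletion, with a log2 fold change of -0.49 and an adjusted p = 7.4e-05, and some of it remained after OHT. One library, WT mESC replicate 1, was unlike the rest: Lars2 took 0.869% of its reads, and no more than 0.140% elsewhere. Markers of naive mESC were detected in every mESC library, with all 10 of them at 1 CPM or more in each group.

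In the germ line, piRNAs are short RNAs bound by PIWI proteins, which they guide to transposon transcripts and, in fetal male germ cells, to transposon DNA that is then methylated. Precursor transcripts are handled by an RNA helicase, cut and trimmed at the surface of mitochondria, and amplified in perinuclear granules that Tudor-domain proteins help to assemble. Promoters of many germline genes are methylated in somatic cells, and repressor complexes hold a number of them in check in mESC. Tex19.1 is known both from germ cells and from pluripotent cells.

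Levels differed widely between the genes. Per kilobase of exon, Tex19.1 and Fkbp6 had the highest mean levels before OHT in WT lines, at 91.4 and 91.5 CPM per kilobase. Piwil2 followed at 32.3 and Tdrd12 at 27.7, and Tdrd1 and Tdrkh were lowest at 0.562 and 0.829 CPM per kilobase. Tex19.1 had the highest mean level per kilobase in each of the other 5 groups, reaching 274 CPM per kilobase in KO EB. All other values below are CPM, which are not divided by length. The 10 genes together summed to 727 ± 17.5 CPM (SD, n = 2) in WT and 285 ± 3.8 in F/F before OHT, 735 ± 17.7 in WT and 372 ± 21.6 in KO mESC, and 738 ± 57.4 in WT and 807 ± 12.2 in KO EB. Tex19.1 alone made up 23.5% of this sum in WT lines before OHT, 41.1% in WT EB and 63.7% in KO EB.

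Ordered by group means, 8 of the 10 genes were lowest in F/F lines before OHT, and Tdrd12 (lowest in KO mESC) and Fkbp6 (lowest in KO EB) were not. The highest group was KO EB for Asz1, Tdrkh and Tex19.1, WT EB for Tdrd12, Tdrd1, Mael and Mov10l1, and WT before OHT for Piwil2, Ddx4 and Fkbp6. Asz1 had the widest span, its highest group mean being 98.9 times its lowest, followed by Tdrd1 at 18.5, Mael at 11.4 and Piwil2 at 10 times. Tdrd12 and Ddx4 had the narrowest spans, 3.11 and 3.13 times. Libraries of groups next to each other in this order overlapped for WT mESC before and after OHT in Asz1, Tdrd12 and Mael, for KO EB and KO mESC in Piwil2, and for WT EB and WT before OHT in Mov10l1. Overlaps of neighbours were also seen in Ddx4 (KO EB with WT mESC after OHT, and that group with WT EB) and in Tdrkh (WT EB with KO mESC, and KO mESC with WT mESC after OHT). Tdrd1, Tex19.1 and Fkbp6 had none. How many of all genes tested were lowest in F/F before OHT, or had no such overlap, was not counted.

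**Figure D1:**
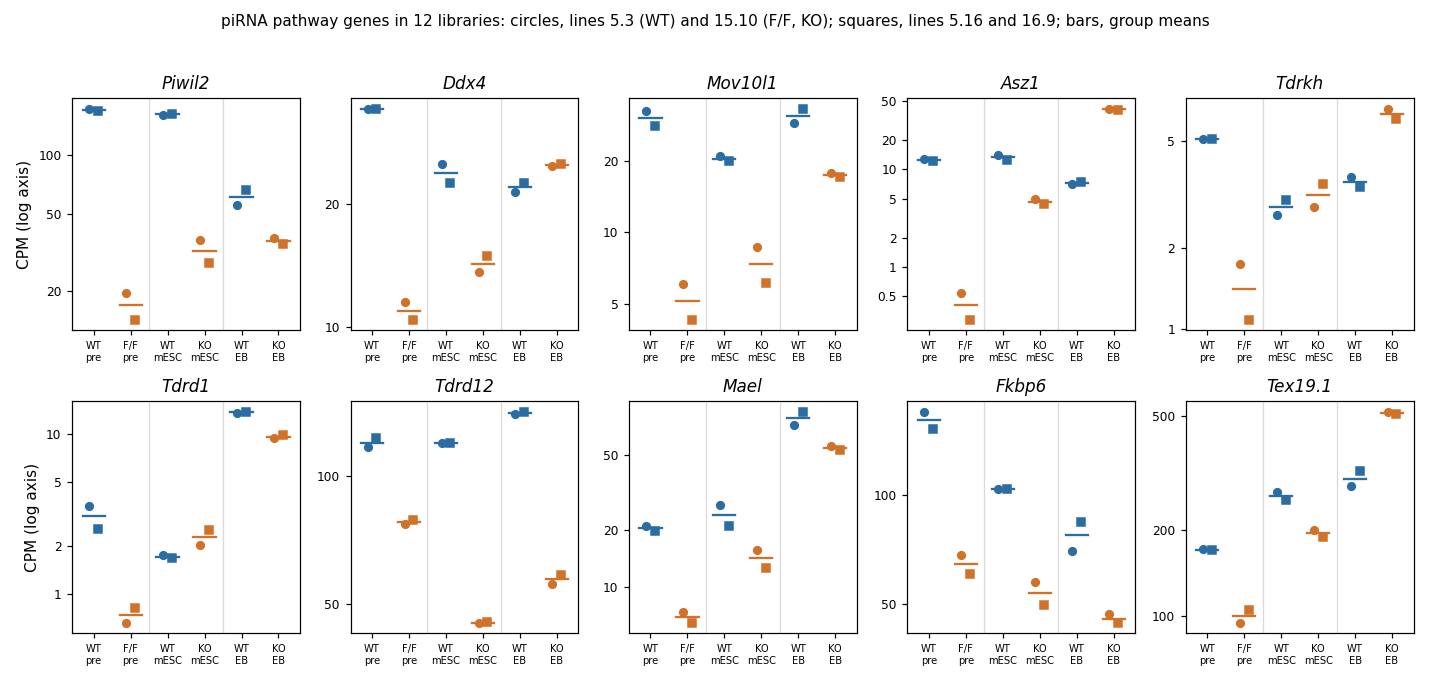
Level of each gene in CPM (log axis, own range per panel) in the 12 libraries. Points are single libraries (circles, lines 5.3 and 15.10; squares, lines 5.16 and 16.9), horizontal bars are means of 2 libraries, blue is WT and orange is F/F or KO. Asz1 runs from 0.289 CPM in F/F before OHT to 41.6 CPM in KO EB, and 8 of the 10 genes have their lowest group mean in F/F before OHT. The share of all genes with their lowest mean there was not counted.

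The first comparison set F/F against WT lines before OHT and asked how far the lines differed before any deletion. All 10 genes were lower in F/F, with both F/F libraries below both WT libraries for each. Over all 17115 genes tested, 37.4% passed in either direction 17.5% passed as lower and 19.9% as higher, and 33.2% were lower in F/F without overlap of the libraries. The median log2 fold change of the 10 genes was -1.75, against 0 for all genes tested. In these bulk libraries, fewer cells expressing a gene and less RNA per cell cannot be told apart.

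Piwil2, which encodes the PIWI protein MILI that binds piRNAs, stood at 173 and 168 CPM in WT and at 19.7 and 14.3 CPM in F/F. Its level was 10-fold lower, a log2 fold change of -3.32 ± 0.13 (SE; adjusted p = 6.86e-12). Ddx4, the Vasa-related helicase of the germ granule, stood at 34.2 CPM in both WT libraries and at 11.5 and 10.4 CPM in F/F. Mov10l1, the helicase that feeds precursors into processing, stood at 32.4 and 28.1 CPM in WT against 6.04 and 4.29 CPM in F/F. The log2 fold changes of these helicases were -1.64 ± 0.10 for Ddx4 and -2.55 ± 0.16 for Mov10l1 (adjusted p = 7.54e-10 and 1.61e-09).

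Asz1, also called GASZ, a mitochondrial scaffold of the processing machinery, had the largest difference of the 10. It stood at 12.6 and 12 CPM in WT and at 0.538 and 0.289 CPM in F/F, where it rested on 22 and 12 counts. The fold was 29.6, a log2 fold change of -4.89 ± 0.19 (adjusted p = 3.42e-12), between -5.39 and -4.51 with each library left out in turn. Tdrkh, a Tudor protein at mitochondria that supports trimming of piRNA ends, stood at 5.09 CPM in both WT libraries and at 1.74 and 1.08 CPM in F/F, lower by -1.85 ± 0.21 on the log2 scale (adjusted p = 2.18e-06). In the annotation used, 36.7% of the exon bases of Tdrkh overlap the antisense gene Oaz3, and whether reads were counted by strand is not known, so reads from this overlap could belong to either gene. Oaz3 itself had 0 to 9 counts per library.

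Tdrd1, a Tudor scaffold that binds MILI, stood at 3.56 and 2.56 CPM in WT and 0.66 and 0.82 CPM in F/F. Tdrd12, a Tudor protein needed for secondary piRNAs, stood at 117 and 123 CPM in WT and 77.2 and 78.9 CPM in F/F. The difference was large for Tdrd1 at -2.05 ± 0.22 and smallest of the 10 for Tdrd12 at -0.62 ± 0.06 (adjusted p = 1.57e-06 and 6.12e-07).

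Mael, the germ granule protein Maelstrom, which acts in transposon silencing, stood at 21.1 and 19.8 CPM in WT and 7.38 and 6.44 CPM in F/F. Fkbp6, a cochaperone that acts in piRNA amplification, stood at 169 and 152 CPM against 68.2 and 60.6 CPM. Tex19.1, a mammal-specific protein that restrains retrotransposons, stood at 172 and 170 CPM against 94.9 and 105 CPM. Their log2 fold changes were -1.57 ± 0.14, -1.32 ± 0.09 and -0.77 ± 0.07 (adjusted p = 1.51e-07, 9.1e-09 and 3.2e-07). Tex19.1 shares 2.67% of its 50-base words with its neighbour in sequence Tex19.2, so a small part of its reads could belong to either.

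RefSeq promoters were read because the genes were lower together in the F/F lines. The promoter table (build GRCm38.p6) held 13 promoters for 9 of the 10 genes, each from 250 bases before to 50 bases after a transcript start; Piwil2 was not among them. Of them 5 are printed 5′ to 3′ on the strand of the gene, with the E-box CACGTG and the E2F6 motif TCCCGC in capitals, the latter appearing as GCGGGA where it lies on the other strand. Mael, Ddx4, Fkbp6 and Tex19.1 are shown because they hold a motif, and Asz1 because its level varied most and its promoter holds neither. Promoters of Tdrd1 and Mov10l1 also hold an E-box and are not printed.

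Asz1 (chr6:18109012-18109311, minus strand): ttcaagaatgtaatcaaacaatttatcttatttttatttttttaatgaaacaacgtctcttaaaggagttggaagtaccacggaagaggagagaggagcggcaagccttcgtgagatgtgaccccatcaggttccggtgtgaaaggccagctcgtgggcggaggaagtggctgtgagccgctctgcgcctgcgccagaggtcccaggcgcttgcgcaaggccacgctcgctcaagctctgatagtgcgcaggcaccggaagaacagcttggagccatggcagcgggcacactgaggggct
Mael (chr1:166238695-166238994, minus strand): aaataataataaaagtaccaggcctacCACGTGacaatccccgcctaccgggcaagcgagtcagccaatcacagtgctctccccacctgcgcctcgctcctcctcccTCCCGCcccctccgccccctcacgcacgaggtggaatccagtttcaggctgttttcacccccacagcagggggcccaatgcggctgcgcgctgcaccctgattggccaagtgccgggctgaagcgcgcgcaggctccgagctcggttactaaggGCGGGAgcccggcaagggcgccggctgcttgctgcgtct
Ddx4 (chr13:112652261-112652560, minus strand): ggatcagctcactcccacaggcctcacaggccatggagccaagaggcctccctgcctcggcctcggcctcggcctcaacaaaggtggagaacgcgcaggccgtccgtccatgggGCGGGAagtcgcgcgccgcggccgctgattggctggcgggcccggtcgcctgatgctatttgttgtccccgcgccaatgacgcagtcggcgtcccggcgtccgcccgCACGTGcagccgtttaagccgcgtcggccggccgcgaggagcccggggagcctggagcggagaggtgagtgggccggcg
Fkbp6 (chr5:135349995-135350294, minus strand): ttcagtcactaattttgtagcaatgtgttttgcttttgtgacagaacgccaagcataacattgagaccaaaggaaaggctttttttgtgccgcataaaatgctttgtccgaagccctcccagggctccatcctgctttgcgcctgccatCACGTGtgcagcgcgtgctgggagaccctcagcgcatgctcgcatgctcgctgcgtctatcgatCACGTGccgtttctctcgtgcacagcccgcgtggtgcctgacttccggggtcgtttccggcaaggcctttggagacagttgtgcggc
Tex19.1 (chr11:121145893-121146192, plus strand): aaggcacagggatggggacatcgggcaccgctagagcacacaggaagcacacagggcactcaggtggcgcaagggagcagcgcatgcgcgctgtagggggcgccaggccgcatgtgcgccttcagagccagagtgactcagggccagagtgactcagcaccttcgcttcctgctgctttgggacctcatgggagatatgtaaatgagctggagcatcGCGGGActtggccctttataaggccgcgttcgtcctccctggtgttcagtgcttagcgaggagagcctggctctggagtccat

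The E-box CACGTG, read on both strands (it is its own reverse complement), was present in at least 1 promoter of 5 of the 9 genes, Tdrd1, Mael, Mov10l1, Ddx4 and Fkbp6. It was found in 8.09% of the 27025 genes of the table and in 12.2% of the 7772 genes with a promoter of at least 20 CpG. Its first base lay 29 bases upstream of the start in Ddx4, 37 and 101 in the printed Fkbp6 promoter, 11 in the first Tdrd1 promoter, 223 in Mael and 246 in Mov10l1. The motif TCCCGC was found in 3 of the 9 genes, Mael, Ddx4 and Tex19.1, against 22% of all genes and 50.9% of the CpG-rich ones. It lay 33 bases upstream in Tex19.1, 136 in Ddx4 and 143 in Mael, with a second match in Mael 11 bases downstream of the start. The 2 motifs do not overlap in any of these promoters. The members' promoters held a median of 20 CpG, against 7 over all 32851 promoters, from 3 at the third Tdrd1 start to 38 in Ddx4. A match is a description of letters and not of binding. The CpG minimum of 20 was set after the values were seen. It was not applied to the 9 genes, of which Asz1 (17 CpG), Tdrd12 (11 and 9) and Tex19.1 (16) fall below it. The 12.2% and 50.9% are therefore not shares of a like set.

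**Figure D2:**
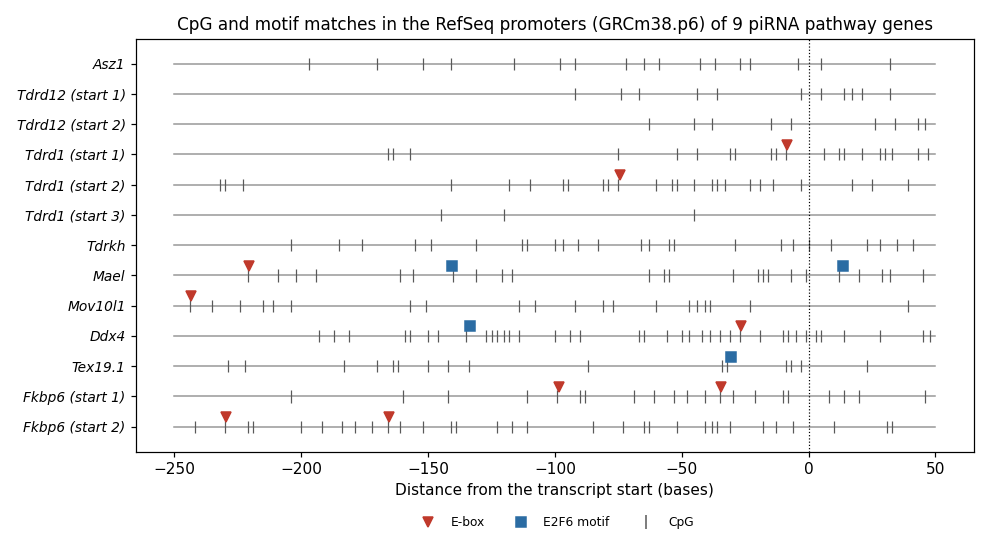
CpG dinucleotides (ticks), E-box matches (triangles) and TCCCGC matches (squares) along the 13 RefSeq promoters of 9 genes, by distance from the transcript start in bases. E-box matches occur in 5 genes and TCCCGC in 3, and Asz1, Tdrd12 and Tdrkh hold neither.

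After 2 days of OHT, 8 of the 10 genes were lower in KO than in WT mESC. None was higher by edgeR, at an adjusted or an unadjusted p under 0.05, or by DESeq2. The genes had a median log2 fold change of -0.86 against 0 for all genes tested. Over all genes tested 38.4% passed, 18.6% as lower and 19.8% as higher, and 35% were lower and 34% higher without overlap of the libraries. Tdrd1 and Tdrkh did not pass. The number lower was also 8 without WT mESC replicate 1, the library unlike the rest. These comparisons share no library with those before OHT, but they use the same 4 lines and are not a replication in other lines.

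Of the 10, Piwil2 differed most in mESC after OHT, with 161 and 163 CPM in WT and 36.7 and 27.9 CPM in KO, so KO was 5.01-fold lower (-2.32 ± 0.13 on the log2 scale, adjusted p = 4.15e-10). Asz1 stood at 14.0 and 12.5 CPM in WT and 4.90 and 4.44 CPM in KO, lower by -1.51 ± 0.13 (adjusted p = 1.32e-07). Tdrd12 stood at 120 CPM in both WT libraries and at 45.1 and 45.3 CPM in KO. Its log2 fold change of -1.41 ± 0.06 (adjusted p = 3.61e-11) was larger than before OHT.

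Mov10l1 was 21 and 19.9 CPM in WT against 8.67 and 6.10 CPM in KO, and Fkbp6 was 104 CPM in both WT libraries against 57.5 and 49.7 CPM. They were lower by -1.47 ± 0.15 and -0.96 ± 0.09 (adjusted p = 1.18e-06 and 5.52e-07). Ddx4 was 25.0 and 22.5 CPM against 13.6 and 14.9 CPM, and Mael 27.3 and 21.1 CPM against 15.8 and 12.6 CPM. Tex19.1, 272 and 255 CPM against 200 and 190 CPM, differed least of those that passed, by -0.43 ± 0.07 (adjusted p = 0.000157), with Mael at -0.77 and Ddx4 at -0.73.

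Tdrd1 was 1.75 and 1.68 CPM in WT and 2.02 and 2.53 CPM in KO, with no overlap, but its log2 fold change of 0.41 ± 0.20 did not pass (adjusted p = 0.117). Tdrkh was 2.64 and 3.01 CPM against 2.84 and 3.45 CPM, overlapping ranges and a difference of 0.16 ± 0.20 (adjusted p = 0.549).

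In EB the genes no longer moved in one direction. Of the 10, 3 were higher in KO (Asz1, Tdrkh and Tex19.1) and 6 were lower, and the median log2 fold change was -0.51 against -0.02 for all genes tested. Over all genes tested 40.4% passed, 20.7% as higher and 19.7% as lower. Without overlap of the libraries, 38.1% of genes were lower and 35.7% higher.

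Asz1 stood at 7.06 and 7.33 CPM in WT EB and at 41.6 and 40.2 CPM in KO EB, 5.68-fold higher (log2 fold change 2.51 ± 0.12, adjusted p = 5.84e-11). The direction is the opposite of that before OHT and in mESC after it. Tdrkh stood at 3.67 and 3.38 CPM in WT and 6.59 and 6.01 CPM in KO, and Tex19.1 at 285 and 321 CPM against 519 and 508 CPM. They were higher by 0.84 ± 0.19 and 0.76 ± 0.07 (adjusted p = 0.00162 and 2.3e-07).

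Tdrd12 was lower in KO EB, 140 and 142 CPM against 55.6 and 58.6 CPM, by -1.30 ± 0.06 (adjusted p = 5.4e-11), so it stayed lower by more than 2-fold in both conditions after OHT. Mov10l1 stood at 28.8 and 33.2 CPM in WT and 17.8 and 17.1 CPM in KO, Piwil2 at 55.4 and 66.3 CPM against 37.4 and 35.1 CPM, and Fkbp6 at 70.3 and 84.4 CPM against 47.0 and 44.5 CPM. These differed by -0.83 ± 0.14, -0.75 ± 0.13 and -0.76 ± 0.09 (adjusted p = 0.000168, 0.000134 and 6.41e-06). Mael, 72.1 and 85.2 CPM against 56.2 and 53.3 CPM, was lower by -0.52 ± 0.12 (adjusted p = 0.00176).

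Tdrd1 was 13.6 and 13.8 CPM in WT and 9.45 and 9.85 CPM in KO EB, a difference of -0.50 ± 0.15 (adjusted p = 0.0128). With any 1 of the 4 EB libraries left out it no longer passed, at adjusted p = 0.0583 to 0.0938, and 5 genes rather than 6 were then lower. Ddx4 was 21.4 and 22.5 CPM in WT and 24.7 and 25.0 CPM in KO, above WT in both libraries but without passing (0.18 ± 0.09, adjusted p = 0.138).

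**Figure D3:**
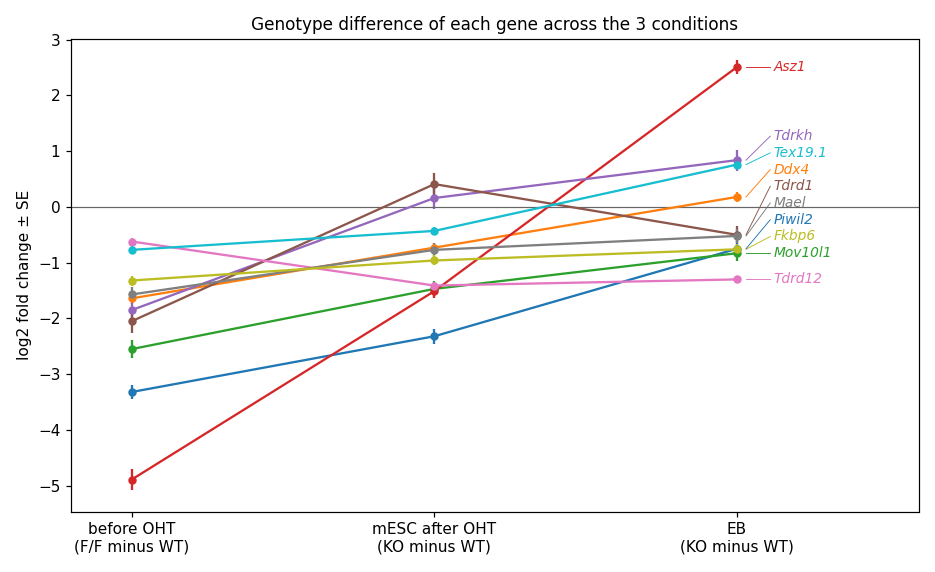
Genotype difference of each gene (log2 fold change ± SE, F/F or KO minus WT, 2 libraries a group) before OHT, in mESC after OHT and in EB. Asz1 crosses from -4.89 to 2.51 while Tdrd12 goes from -0.62 to -1.30, and the other 8 genes sit higher in EB than before OHT. Tdrkh, Tex19.1 and Ddx4 also change sign, to 0.84, 0.76 and 0.18 in EB, where the value of Ddx4 did not pass.

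Interaction terms tested whether the genotype difference itself changed between conditions. It is signed, F/F or KO minus WT, so higher means less negative or more positive. After OHT it was higher than before OHT for 7 genes and lower for 1, Tdrd12, against 7.86% of all genes tested in either direction, 4.07% higher and 3.79% lower. Asz1 (-4.89 before and -1.51 after), Piwil2, Mov10l1, Ddx4 and Mael were lower in both conditions, by less after OHT. Tdrd12 was lower by more (-0.62 and -1.41). Asz1 moved by 3.38 ± 0.25, Tdrd1 by 2.45 ± 0.30 and Tdrkh by 2.01 ± 0.29 on the log2 scale (adjusted p = 4.76e-07, 9.86e-05 and 0.000396). Mov10l1 moved by 1.08 ± 0.22, Piwil2 by 1.00 ± 0.18, Ddx4 by 0.91 ± 0.13 and Mael by 0.79 ± 0.19, whereas Tdrd12 moved by -0.79 ± 0.09. Mov10l1 no longer passed without KO mESC replicate 3 (adjusted p = 0.0609), nor did Mael without KO mESC replicate 3, WT replicate 1 before OHT or F/F replicate 4 (adjusted p = 0.101, 0.0685 and 0.0912). Tex19.1 at 0.34 (adjusted p = 0.0502) and Fkbp6 at 0.36 (adjusted p = 0.098) did not pass. With no filter both passed (adjusted p = 0.0282 and 0.0311), and Tex19.1 also passed with DESeq2, without WT mESC replicate 1 and without F/F replicate 4 (adjusted p = 0.0219, 0.0456 and 0.0416). With 1 library left out, 5 to 8 genes were higher. The median of the 10 was 0.95 against -0.02 for all genes.

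Between mESC after OHT and EB the genotype difference rose for 5 genes and fell for Tdrd1, with 28.6% of all genes tested passing, 14.8% as higher and 13.7% as lower. Asz1 rose by 4.01 ± 0.18, Piwil2 by 1.58 ± 0.18, Tex19.1 by 1.19 ± 0.10 and Ddx4 by 0.91 ± 0.13 (adjusted p = 1.47e-10, 5.83e-06, 3.06e-07 and 8.2e-05). Mov10l1 at 0.64 ± 0.21 (adjusted p = 0.0287) lost its call without WT mESC replicate 1, KO mESC replicate 4, WT EB replicate 1, KO EB replicate 3 or KO EB replicate 4, at adjusted p = 0.0521, 0.201, 0.102, 0.0883 and 0.0594. Tdrd1 fell by 0.91 on the log2 scale (adjusted p = 0.0113), and by 0.74 without passing when KO mESC replicate 4 was left out (adjusted p = 0.0949). The other 4 did not pass, Tdrkh at 0.68 (adjusted p = 0.0698), Mael at 0.25, Fkbp6 at 0.20 and Tdrd12 at 0.11 (adjusted p = 0.315, 0.286 and 0.402).

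Set against the difference before OHT, the difference in EB was higher for 9 genes and lower for Tdrd12, by -0.68 ± 0.09 (adjusted p = 1.64e-05). Over all genes 31.2% passed, 15.5% as higher and 15.7% as lower. Asz1 had the largest change of the 10, 7.39 ± 0.22, and Fkbp6 the smallest of the 9, 0.56 ± 0.13 (adjusted p = 3.87e-13 and 0.0037). Between them lay Tdrkh at 2.69, Piwil2 at 2.58, Ddx4 at 1.82, Mov10l1 at 1.72, Tdrd1 at 1.54, Tex19.1 at 1.53 and Mael at 1.04. The 3 interaction contrasts share groups, so their counts are not independent of one another.

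Within the WT lines, OHT was followed by lower levels of 5 genes and a higher level of 1. Over all genes tested 49.1% passed, 24.9% as higher and 24.2% as lower. Tex19.1 rose by 0.62 ± 0.07 (adjusted p = 4.4e-06), and Tdrkh, Tdrd1, Fkbp6, Mov10l1 and Ddx4 fell, by log2 fold changes from -0.85 to -0.53. Asz1 at 0.11, Tdrd12 at 0.00, Piwil2 at -0.08 and Mael at 0.24 did not pass (adjusted p = 0.472, 1, 0.614 and 0.114). Mael passed with no filter and without WT mESC replicate 2, where it was 0.42 (adjusted p = 0.0242 and 0.00824). In WT lines these genes moved with OHT and flow cell alike, and those cannot be told apart.

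Within the Rif1F/F lines, 8 genes rose after OHT and Tdrd12 and Fkbp6 fell, with 43.7% of all genes passing, 22.1% as higher and 21.5% as lower. Asz1 rose 11.2-fold, from 0.538 and 0.289 CPM to 4.90 and 4.44 CPM (log2 fold change 3.49 ± 0.21, adjusted p = 7.51e-09). Tdrd1 rose by 1.62 ± 0.24, Tdrkh by 1.16 ± 0.22, Mael by 1.04 ± 0.14, Tex19.1 by 0.96 ± 0.07 and Piwil2 by 0.92 ± 0.13. Tdrd12 fell by 0.79 on the log2 scale (adjusted p = 1.28e-07). Smaller changes rested on single libraries. Mov10l1 (0.51, adjusted p = 0.023) was 0.24 without KO mESC replicate 3 and 0.29 without F/F replicate 4 (adjusted p = 0.352 and 0.228). Fkbp6 (-0.26, adjusted p = 0.0308) was -0.16 without KO mESC replicate 4 and -0.18 without F/F replicate 3 (adjusted p = 0.308 and 0.249), and Ddx4 (0.38, adjusted p = 0.005) was 0.31 without KO mESC replicate 4 (adjusted p = 0.0689).

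From mESC after OHT to EB, 5 genes rose and 3 fell in the WT lines, with 62.3% of all genes passing, 32.5% as higher and 29.8% as lower. Tdrd1 rose 7.96-fold (2.99 ± 0.17, adjusted p = 7.03e-11) and Mael 3.25-fold (1.70 ± 0.12, adjusted p = 1.36e-09), and Mov10l1 rose by 0.60. Piwil2 fell by 1.41, Asz1 by 0.88 and Fkbp6 by 0.43 on the log2 scale (adjusted p = 1.82e-08, 7.24e-06 and 0.00063). Tdrd12 (0.23, adjusted p = 0.00335) was 0.19 without WT EB replicate 2 (adjusted p = 0.056). Tex19.1 (0.20, adjusted p = 0.0209) was 0.15 without WT mESC replicate 2, 0.08 without WT EB replicate 2 and 0.17 with only the compared groups in the fit (adjusted p = 0.13, 0.436 and 0.0937). Tdrkh (0.32, adjusted p = 0.153) and Ddx4 (-0.11, adjusted p = 0.308) did not pass.

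In the KO lines 8 genes rose from mESC to EB, with 59% of all genes passing, 31.4% as higher and 27.6% as lower. Asz1 rose 8.77-fold (3.13 ± 0.13, adjusted p = 1.34e-12), Tdrd1 by 2.08 ± 0.18, Mael by 1.95 ± 0.13, Tex19.1 by 1.4 ± 0.07 and Mov10l1 by 1.24 ± 0.16. Tdrkh, Ddx4 and Tdrd12 rose by 1.00, 0.80 and 0.34. Piwil2 stood at 36.7 and 27.9 CPM in KO mESC and 37.4 and 35.1 CPM in KO EB, a difference of 0.17 (adjusted p = 0.274). Fkbp6 was -0.23 (adjusted p = 0.0506), and with the replicate block it passed as lower (adjusted p = 0.038). It also passed as lower with no filter on low counts, with only the compared groups in the fit and without KO mESC replicate 4 (adjusted p = 0.012, 0.00219 and 0.0205), but not by DESeq2 (adjusted p = 0.0507). With all 12 libraries, the filter and no block, no gene fell by edgeR, and 1, Fkbp6, had an unadjusted p under 0.05.

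**Figure D4:**
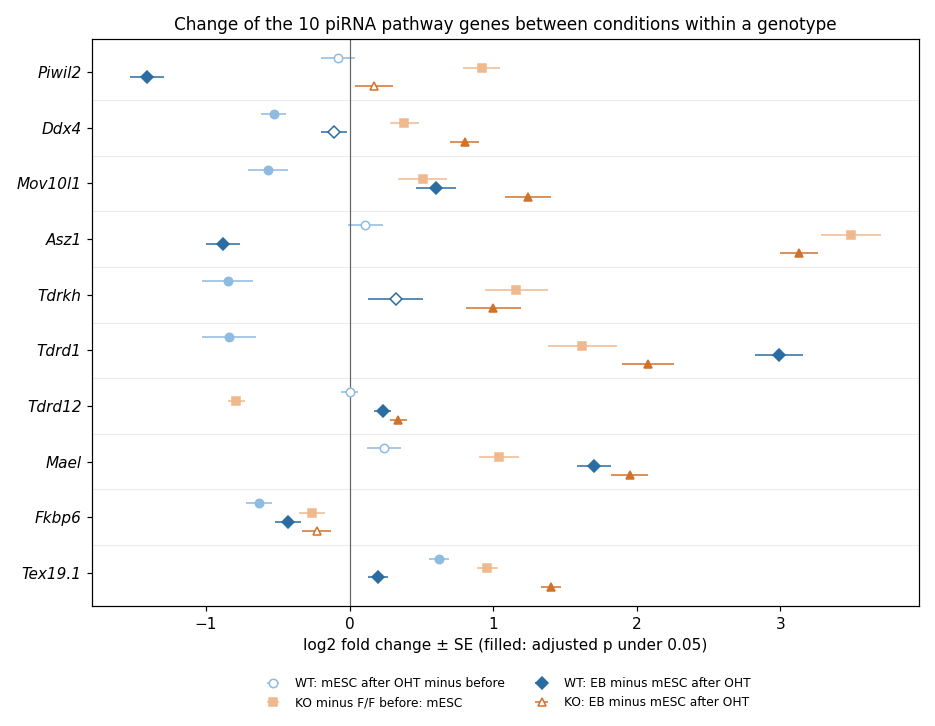
Change of each gene between conditions within a genotype (log2 fold change ± SE; filled symbols have an adjusted p under 0.05): after OHT minus before it, and EB minus mESC after OHT, for WT and for the Rif1F/F lines. Asz1 rises in both steps in the Rif1F/F lines (3.49 and 3.13) and falls in WT EB (-0.88).

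Other genes of the pathway were counted from a list of 22, of which 21 were in the table and all 21 were tested. Before OHT 2 were higher and 13 lower in F/F, after OHT 2 higher and 10 lower in KO mESC, and in EB 6 higher and 5 lower. Over all genes tested, 37.4%, 38.4% and 40.4% passed in these comparisons, with 17.5%, 18.6% and 19.7% lower. The list's medians were -0.51, -0.35 and -0.01, against 0, 0 and -0.02 for all genes. Tex15, a nuclear factor of piRNA-directed silencing that is also known from meiosis, was lower in all 3 comparisons, by -3.18, -2.43 and -1.57. Before OHT its levels were 77.6 ± 4.84 CPM in WT and 8.58 ± 1.66 in F/F, and in WT and KO EB they were 185 ± 6.83 and 62.3 ± 2.52 CPM (SD, n = 2). Tdrd9, a helicase of the piRNA pathway with a Tudor domain, was likewise lower in all 3, by -1.51, -1.69 and -1.09.

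Tex19.2, the paralog of Tex19.1, was lower before OHT by -2.00 and in mESC by -1.05 and higher in EB by 0.65, the same order of signs as Tex19.1. Stk31, a Tudor-domain kinase of germ cells, was lower by -1.10 and -0.53 and higher in EB by 0.40. Rnf17, a Tudor protein of male germ cells, was higher in all 3 comparisons, by 0.36, 0.45 and 0.91. Tdrd7 was lower before OHT and in mESC by -0.99 and -0.66, and in EB its -0.23 did not pass (adjusted p = 0.0869).

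**Figure D5:**
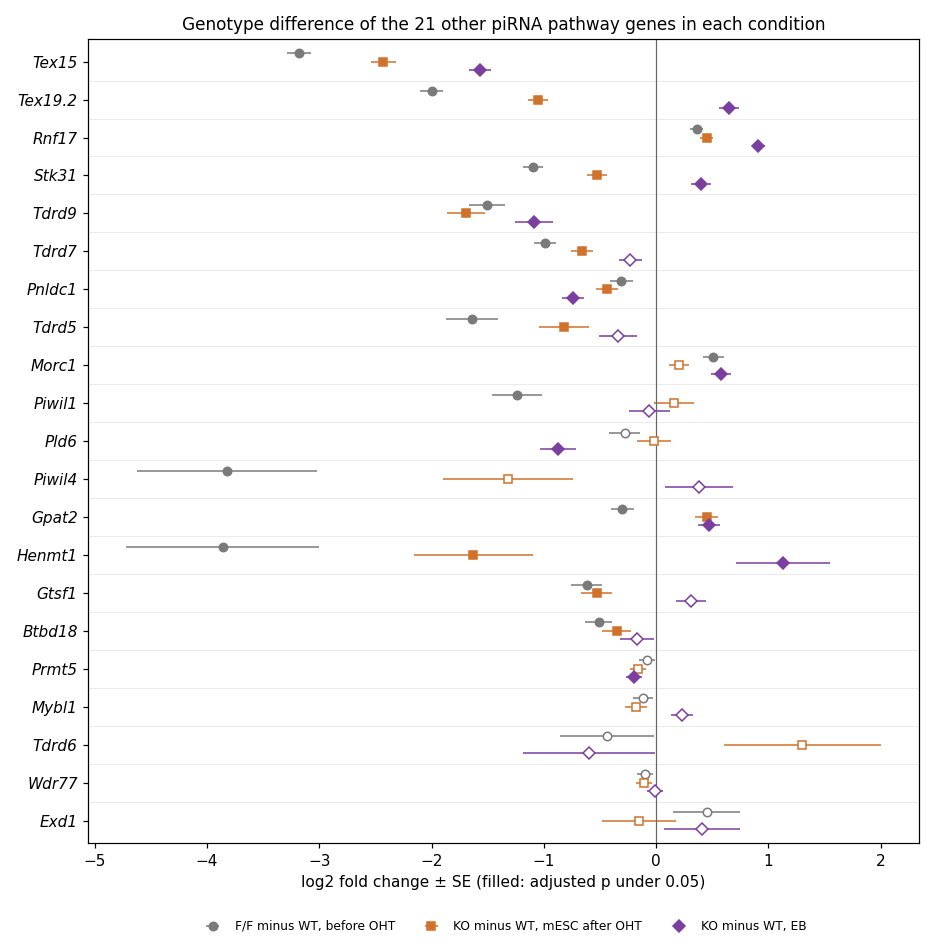
Genotype difference (log2 fold change ± SE; filled symbols have an adjusted p under 0.05) of the 21 other piRNA pathway genes before OHT, in mESC after OHT and in EB. 13 of 21 are lower before OHT and 5 of 21 in EB. The widest errors are those of Piwil4 and Henmt1 before OHT and of Tdrd6 in mESC after OHT and in EB.

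Factors known to silence germline genes were counted from a second list of 19. Of these 2 were higher and 3 lower before OHT, 2 higher and 9 lower in KO mESC, and 4 higher and 8 lower in EB, with medians of -0.03, -0.17 and -0.23 against 0, 0 and -0.02 for all genes. The shares of all genes tested that passed were 37.4%, 38.4% and 40.4%, so the count before OHT, in either direction, lies below that background. By direction, 17.5%, 18.6% and 19.7% of all genes passed as lower and 19.9%, 19.8% and 20.7% as higher. The 9 and 8 of 19 lower in KO mESC and in EB lie above the shares passing as lower, and the 3 before OHT do not. The de novo DNA methyltransferase gene Dnmt3a stood at 986 ± 13.9 CPM in WT EB and 387 ± 6.40 in KO EB, a log2 fold change of -1.35 ± 0.08 (adjusted p = 5.92e-10), against -0.48 before OHT and -0.57 in mESC. Dnmt3b was lower in KO mESC and KO EB by -0.60 and -0.65. Before OHT its -0.17 did not pass (adjusted p = 0.0739). The cofactor gene Dnmt3l was lower by -0.48 before OHT and -0.79 in mESC and higher by 0.22 in EB, and the chromatin remodeller gene Hells was lower by -0.42, -0.64 and -0.63. The relation between these levels and those of the piRNA genes was not tested.

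By the root mean square difference between centred log2 group means over the 6 groups, the genes nearest to the median pattern of the 10 were Ccnd1 (0.15), Layn (0.17), Boll (0.19), Ccnb1ip1 (0.23) and Tspan7 (0.23). The median pattern was 0.68 in WT and -1.41 in F/F before OHT, 0.33 and -0.53 in mESC, and 0.27 and 0.60 in EB. Among the 10, Ddx4 (0.26) and Tdrkh (0.33) lay nearest to it and Asz1 (1.34) and Tdrd1 (1.05) farthest. Each of the 10 thus lay farther from the median pattern than the 5 genes named. Nearest genes can be found for any pattern, so the list is a description only. Layn (0.53 to 4.12 CPM) and Boll (0.831 to 4.71 CPM) had low levels.

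Markers of other cells also differed between the groups. The 9 primordial germ cell markers summed to 1080–1110 CPM in WT and 490–495 in F/F before OHT, 996–1060 in WT and 583–613 in KO mESC, and 190–196 in WT and 494 in KO EB. Dazl had the highest level of these markers in WT lines before OHT (662 CPM), whereas in F/F lines before OHT Kit (226 CPM) and Tfap2c (103 CPM) stood above Dazl (91 CPM). Nanos2 was near 0 in all groups and at 0 in both EB groups. Of the 8 tested, 0 were higher and 3 lower before OHT, 1 higher and 4 lower in KO mESC, and 7 higher and 0 lower in KO EB, where 37.4%, 38.4% and 40.4% of all genes tested passed. Taken in either direction, the count before OHT is near that background. By direction, 17.5%, 18.6% and 19.7% of all genes tested passed as lower and 19.9%, 19.8% and 20.7% as higher. The 3 of 8 lower before OHT thus lie above the share of all genes passing as lower, on few genes. Spermatogenic markers summed to 4.73–22.3 CPM, with Prm1 and Tnp1 near 0, and oocyte markers to 1.95–13.8 CPM. In WT and KO EB the spermatogenic sums were 9.22–13.5 and 21.1–22.3 CPM, mostly Stra8 (8.73 and 18.9 CPM, log2 fold change 1.11). The oocyte sums there were 11.3–13.8 and 6.99–7.48 CPM, mostly Zp3 (10.9 and 4.85 CPM, log2 fold change -1.17). Of 4 spermatogenic markers tested, 1 was higher and 0 lower in KO EB. Of 7 oocyte markers tested, 2 were higher and 1 lower, where 20.7% and 19.7% of all genes passed as higher and lower. Two-cell-like markers, genes of the totipotent-like cells found in mESC cultures, summed to 0.343–0.365 CPM in WT and 0.723–0.782 in F/F before OHT, 0.906–1.69 in WT and 9.69–10.3 in KO mESC, and 11.6–14.1 in WT and 292–331 in KO EB. Feeder fibroblast markers summed to 23.3–26.3 CPM in WT and 30–35.6 in F/F before OHT. Their sums were 26–39.4 CPM in WT and 30.4–33.3 in KO mESC, and 36.2–40.9 in WT and 32.6–35 in KO EB. Of 6 tested, 3 were higher and 1 lower before OHT, 2 higher and 1 lower in KO mESC, and 1 each in KO EB. Col1a2 was among the higher ones, at 0 CPM in WT and 1.01 in F/F before OHT.

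Of the 10 naive mESC markers, 8 were higher and 1 lower in F/F before OHT, 5 higher and 1 lower in KO mESC, and 6 higher and 0 lower in KO EB. Over all genes tested, 19.9%, 19.8% and 20.7% passed as higher in these comparisons, and 17.5%, 18.6% and 19.7% as lower. The naive markers summed to 4660–4960 CPM in WT and 6040–6570 in F/F before OHT, 5750–5850 in WT and 6080–6540 in KO mESC, and 1430–1450 in WT and 1600–1680 in KO EB. Tfcp2l1 alone had means of 1690 CPM in WT and 2530 in F/F before OHT. Of the 10 early differentiation markers, 1 was higher and 5 lower before OHT, 1 higher and 6 lower in KO mESC, and 0 higher and 7 lower in KO EB. Their sums were 301–311 CPM in WT and 229–231 in F/F before OHT, 351–354 and 240–243 in WT and KO mESC, and 2790–2810 and 1460–1480 in WT and KO EB. This list holds Dnmt3a and Dnmt3b, which are also counted above as silencing factors. Dnmt3a stood at 986 CPM in WT EB and 387 in KO EB, and Dnmt3b at 1220 and 780, a large part of these sums. The part of these cell states in the piRNA gene results was not tested.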

How the data were processed

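Total RNA of 12 libraries (4 lines in 3 conditions, 6 groups of 2) was analysed from 1 table. It holds raw counts of reads for each symbol, as deposited by the authors. The submitters' processing notes name BWA, HTSeq, DESeq2 and the build mm9 without versions or roles. The annotation and strand setting of the counting are not given in the sources used here.

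Counts were tested in R 4.3.3 with edgeR 4.0.16: 1 quasi-likelihood model of the 6 groups, TMM normalization, the filterByExpr filter (17115 of 24391 genes kept) and Benjamini-Hochberg adjustment at 0.05 over all genes tested. CPM use TMM-scaled library sizes, and each ± on a log2 value is the SE of that fit. Total counts of 28600870 to 64808897 set the precision. Exon lengths and overlaps come from GENCODE M21 and promoters from RefSeq, both on GRCm38.p6, matched by symbol. As the counts are on mm9, no other coordinates are given.

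The 10 genes and the gene lists were chosen with earlier results of these data known. The rule named all 10 genes in every comparison, the 6 other pathway genes and 4 silencing factors of smallest adjusted p in any genotype comparison within a condition, and the 5 genes of nearest pattern with a mean log2 CPM of at least 1. Same-numbered libraries come from the same line, which pairs them across conditions. Their deviations from the group means correlated at -0.066 to 0.091 across genes, which are not independent replicates. The alternatives were RLE normalization, no filter, only the compared groups, DESeq2 1.42.0, a replicate block and leaving out each library.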

Additional observations from a re-analysis of the deposited data

Results flagged for a closer look

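The genotype difference changed between conditions for each of the 10 genes in at least 1 of 3 interaction tests, adjusted over all genes tested with edgeR. Over all genes tested, 7.86%, 28.6% and 31.2% passed in these tests, in the order given below. The share of all genes passing at least 1 of them was not counted, and the tests share groups. Between mESC after OHT and mESC before it, the log2 difference changed by 3.38 for Asz1, 2.45 for Tdrd1, 2.01 for Tdrkh, 1.08 for Mov10l1, 1.00 for Piwil2, 0.91 for Ddx4, 0.79 for Mael and -0.79 for Tdrd12. Between EB and mESC after OHT it changed by 4.01 for Asz1, 1.58 for Piwil2, 1.19 for Tex19.1, 0.91 for Ddx4, 0.64 for Mov10l1 and -0.91 for Tdrd1. Between EB and mESC before OHT it changed by 7.39 for Asz1, 2.69 for Tdrkh, 2.58 for Piwil2, 1.82 for Ddx4, 1.72 for Mov10l1, 1.54 for Tdrd1, 1.53 for Tex19.1, 1.04 for Mael, 0.56 for Fkbp6 and -0.68 for Tdrd12. Tdrd12 was the only gene of the 10 whose difference became more negative in both contrasts that include the state before OHT.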

How the results depend on the processing

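Of 100 gene comparisons (10 genes in 10 contrasts), 83 passed, and of 816 alternative values of these 793 kept their direction and call, 23 kept the direction without passing and 0 changed sign. Signs changed only for differences that had not passed. Tdrd12 in WT mESC after against before OHT was 0.00, and 0.01 with RLE normalization or DESeq2, 0.02 without the filter, 0.00 with the replicate block and -0.03 to 0.05 with 1 library left out. Piwil2 in KO EB against KO mESC was 0.17, and -0.02 to 0.37 with 1 library left out, the lowest without KO mESC replicate 4. With no filter the number of genes higher in WT mESC after OHT was 2 rather than 1, and 1 to 2 with 1 library left out. The number lower in KO EB against KO mESC was 1 rather than 0 with no filter, with only the compared groups or with the replicate block, and 0 to 1 with 1 library left out. The block pairs libraries of the same line and changed no other call. Genotype comparisons within a condition share no line, so no block could be fitted there. With 1 library left out, the lone sample assumed to vary like the other groups, 1 to 2 genes were lower in KO mESC against F/F, 3 to 5 higher in WT EB against WT mESC, and 0 to 1 lower in the EB against mESC interaction. Tdrkh in that interaction passed with no filter or only the compared groups (adjusted p = 0.0486 and 0.044). Over all genes, 6572 passed in KO against WT mESC, and 4125 without KO mESC replicate 4. For the OHT interaction 1346 passed, 2218 without the filter, 705 with only the compared groups and 510 to 2540 with 1 library left out. The cause of these shifts was not tested. Depth limits the precision of low genes, such as Asz1 in F/F before OHT, with 22 and 12 counts, and Tdrd1 there, with 27 and 34.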
